A study of Mus musculus with 2 samples.

Results

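Levels of the Maf family of transcription factors were followed in the mouse lens at P60 and P7 through 5 of 18194 annotated genes, Maf, Maff, Mafg, Mafk and Nrl, which are read by 11 of 45101 probe sets. The Maf proteins are transcription factors of the basic leucine zipper class. The large members, Maf (also called c-Maf) and Nrl among them, carry an activation domain. The small members, Maff, Mafg and Mafk, lack one and act as partners of other zipper proteins. In the mouse lens Maf is needed for the elongation of fibre cells and for the expression of crystallin genes, and mice short of Mafg and Mafk develop cataract. Nrl is best known from the retina, where it directs the rod photoreceptor fate. Small Maf proteins pair with the cap'n'collar (CNC) factors and with Bach1 and Bach2 on antioxidant response elements, DNA sites found beside genes of detoxification and glutathione synthesis.

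The samples were 2 arrays of wild-type mouse lens RNA of the strain given as C57/BL6, a pool of P60 lenses (60 days old) and a pool of P7 lenses (7 days old), with 1 array per age. The labels name no treatment or mutation. Members were all probe sets, groups of short probes read as 1 value, whose annotation gave exactly 1 gene symbol out of Maf, Maff, Mafg, Mafk and Nrl. This gave 6 probe sets for Maf, 2 for Mafg and 1 each for Maff, Mafk and Nrl. Each value is a MAS5 signal intensity on a linear scale, and ratios are log2 of P60 over P7. Intensities under a floor of 103.9, which is the median over all values on both arrays, were raised to it first, and a probe set above it on 1 array or both counted as measured. With 1 pool per age no p-value is possible, so differences are given by size and a difference of 2-fold was counted as higher or lower. In pooled whole lenses, fewer cells of a type and less RNA per cell cannot be told apart.

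The lens label was borne out by 7 of 7 fibre cell genes with a probe set, such as Mip and Bfsp1, above the floor at both ages. The median intensity was 93.9 on the P60 array and 112.9 on the P7 array, and 47.8% and 52.2% of probe sets lay above the floor. The ratio of 5′ to 3′ signal for beta-actin, which falls as RNA or cDNA is truncated, was 0.606 at P60 and 0.785 at P7, that of Gapdh was 1.29 at P60 and 1.39 at P7, and that of the dap spike-in was 0.0439 at P60 and 0.158 at P7. Where the Maf family probe sets lie along their transcripts is not given in the sources used here, so the part of this difference in the ratios below was not tested.

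The sites that Maf proteins bind frame what follows, so promoter sequence is shown before the values. A Maf recognition element (MARE) is a palindrome around a shorter core, and its half-site TGCTGA is the part that Maf proteins read. Windows of 300 bases, from 250 bases before to 50 after each annotated start site, were searched on both strands in the RefSeq table of mouse build GRCm38.p6. The letters searched were TGCTGA (the half-site), TGACTCA (the TPA response element, TRE, which AP-1 also binds), TGACNNNGC (the antioxidant response element, ARE, core) and the full palindromes, named T-MARE and C-MARE. These motifs overlap, so that 1 stretch can match several. The first palindrome occurred in 1 of 32851 windows and the second in 0, and neither was found in a window of the family or of the gene lists below.

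Crystallins, the main soluble proteins of the fibre cell and textbook targets of Maf, held the half-site in 10 of 15 windows (66.7%), against 6401 of all 32851 windows (19.5%). The ARE core was in 8 of 15 crystallin windows (53.3%, against 12.4% of all windows) and the TRE in 4 (26.7%, against 5.20%). Base composition was not matched in these shares, and a match is a run of letters, not a shown binding site. The 10 stretches are printed because each holds the half-site match nearest the start site of its gene, with 20 bases on either side. In some of these genes, such as Cryba2 and Crygs, an ARE core and a TRE lie nearer the start. The half-site is in capitals, as TGCTGA or, where it lies on the other strand, TCAGCA.
Cryaa, chr17:31677803-31677848, plus strand: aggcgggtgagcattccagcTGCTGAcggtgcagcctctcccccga
Cryba1, chr11:77725325-77725370, minus strand: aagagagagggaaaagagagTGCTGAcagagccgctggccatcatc
Cryba2, chr1:74893267-74893312, minus strand: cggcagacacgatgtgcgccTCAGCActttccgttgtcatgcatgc
Cryba4, chr5:112252570-112252615, minus strand: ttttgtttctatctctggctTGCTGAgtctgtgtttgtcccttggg
Crybb1, chr5:112255716-112255761, plus strand: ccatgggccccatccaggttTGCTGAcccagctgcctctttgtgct
Crybb3, chr5:113081626-113081671, minus strand: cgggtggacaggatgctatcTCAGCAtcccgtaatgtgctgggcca
Cryga, chr1:65103553-65103598, minus strand: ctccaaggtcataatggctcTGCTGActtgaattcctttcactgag
Crygc, chr1:65073736-65073781, minus strand: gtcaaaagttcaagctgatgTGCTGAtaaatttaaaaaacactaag
Crygn, chr5:24758051-24758096, minus strand: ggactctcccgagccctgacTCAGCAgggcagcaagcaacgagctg
Crygs, chr16:22811585-22811630, minus strand: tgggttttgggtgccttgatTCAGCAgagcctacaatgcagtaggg
The half-site began 108 bases before the start site in Cryaa and 84 bases before it in Crybb1. Of the 10 sites 6 began between 50 and 150 bases before the start, and the others reached out to 229 bases. In Crygn the letters around the site also match the TRE and the ARE core. The half-site also runs into an ARE core in Cryaa, Cryba1 and Crybb1, so the crystallin shares of both motifs rest partly on the same stretches.

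Windows were found for 4 of the 5 family genes, all but Maf. They are shown because Mafg is itself known to be induced through antioxidant response elements. The half-site, the TRE and the ARE core are in capitals.
Maff, chr15:79346371-79346670, plus strand: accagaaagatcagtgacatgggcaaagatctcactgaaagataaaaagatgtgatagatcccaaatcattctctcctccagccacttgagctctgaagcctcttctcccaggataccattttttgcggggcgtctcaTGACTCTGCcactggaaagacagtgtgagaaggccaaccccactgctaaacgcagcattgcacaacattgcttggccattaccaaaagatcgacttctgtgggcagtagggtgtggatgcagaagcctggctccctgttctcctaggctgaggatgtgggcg
Mafg, chr11:120633498-120633797, minus strand: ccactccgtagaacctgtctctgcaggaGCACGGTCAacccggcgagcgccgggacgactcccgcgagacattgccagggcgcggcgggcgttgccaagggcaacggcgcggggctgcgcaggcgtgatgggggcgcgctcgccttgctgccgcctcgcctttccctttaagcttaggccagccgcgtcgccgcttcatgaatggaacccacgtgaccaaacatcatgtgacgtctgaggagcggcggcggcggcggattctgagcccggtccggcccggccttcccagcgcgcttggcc
Mafk, chr5:139791286-139791585, plus strand: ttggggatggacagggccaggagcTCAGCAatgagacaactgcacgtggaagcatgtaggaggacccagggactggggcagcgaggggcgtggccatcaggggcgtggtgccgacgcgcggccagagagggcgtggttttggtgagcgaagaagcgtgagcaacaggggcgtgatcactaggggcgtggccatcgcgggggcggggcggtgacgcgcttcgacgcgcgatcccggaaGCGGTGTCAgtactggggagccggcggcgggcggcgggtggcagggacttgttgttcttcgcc
Nrl, chr14:55524203-55524502, minus strand: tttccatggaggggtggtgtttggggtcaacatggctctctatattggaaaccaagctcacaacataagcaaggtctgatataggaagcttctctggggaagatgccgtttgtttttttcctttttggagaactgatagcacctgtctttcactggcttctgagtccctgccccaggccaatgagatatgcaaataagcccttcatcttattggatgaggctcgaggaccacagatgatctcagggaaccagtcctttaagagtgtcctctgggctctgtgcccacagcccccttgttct
All 3 small Maf genes had an ARE core in a window, in Maff in 1 of its 3 windows, and Mafk also had a half-site. Of all 27025 genes with a window, 14.0% had an ARE core and 21.7% a half-site. Base composition was not matched here either. The Nrl window held none of these letters. The ARE core began 112 bases before the start site in Maff, 222 bases before it in Mafg and 13 bases before it in Mafk.

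All 11 family probe sets were above the floor at both ages. Of these, 3 were at least 2-fold lower at P60, a pair of Maf probe sets and that of Nrl, none was 2-fold higher, and 8 lay within 2-fold. Across all 22462 measured probe sets 10.6% were 2-fold lower and 9.89% 2-fold higher. The family's median log2 ratio was -0.64, against -0.04 over all measured probe sets, but 6 of the 11 values come from 1 gene. The ratio was below 0 for 8 of the 11 probe sets, as it was for 11761 of all 22462 measured probe sets. It was below 0 for 6 of the 11 when the arrays were scaled to a common median. That scaling raises the median ratio of all genes by 0.25 on the log2 scale.

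**Figure D1:**
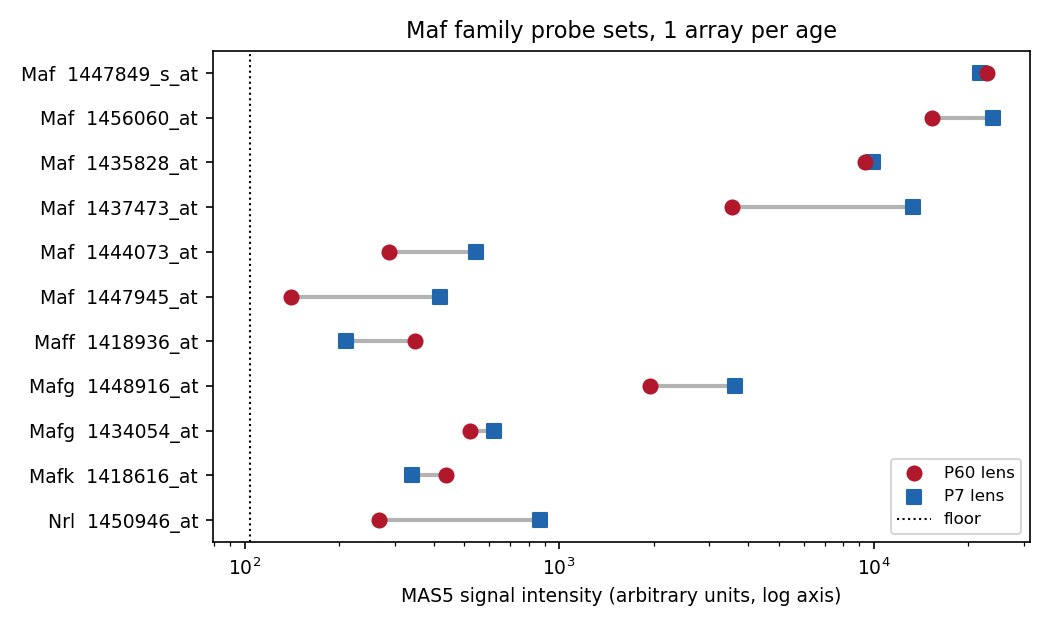
MAS5 signal intensity (log axis, arbitrary units) of each Maf family probe set in the P60 lens pool (circles) and the P7 lens pool (squares), 1 array per age, with the floor of 103.9 as a dotted line. The Maf probe sets differ in how far P60 lies from P7, from overlapping marks for 1447849_s_at and 1435828_at to a wide gap for 1437473_at.

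Maf, the large Maf protein of the lens fibre, gave no single answer, because its 6 probe sets disagreed. Probe set 1447849_s_at read 22896 at P60 and 21816 at P7, a log2 ratio of 0.07. Probe set 1435828_at read 9385 at P60 and 9933 at P7, a log2 ratio of -0.08 that became 0.18 with the arrays scaled to a common median. On these 2 probe sets Maf was thus at nearly equal levels in the adult and the growing lens.

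The other 4 Maf probe sets read lower at P60. For 1437473_at the intensity was 3554 at P60 and 13312 at P7, which is 3.75-fold lower, and only 1.79% of measured probe sets had a lower ratio. Probe set 1447945_at read 140.2 at P60 and 418 at P7, 2.98-fold lower, with its P60 value not far above the floor. Smaller differences were seen for 1444073_at (287 at P60 and 545 at P7, 1.90-fold lower) and 1456060_at, which had 64.3% of its P7 signal at P60 (15370.45 against 23919.7). No setting turned any of these 4 above 0.

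Between the Maf probe sets the log2 ratio spanned 1.98, with an SD of 0.79 (n = 6 probe sets). The SD pooled over 4239 genes with several probe sets was 0.58. Among the 42 genes that, like Maf, had 6 probe sets above the floor at both ages, the median span was 1.46, and 11 of them, Maf included, spanned at least as much (26.2%). The disagreement within Maf was therefore wide but not rare for such genes. Probe sets of 1 gene can read different 3′ ends or introns of its transcripts, and which of these the 6 read is not given in the sources used here.

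**Figure D2:**
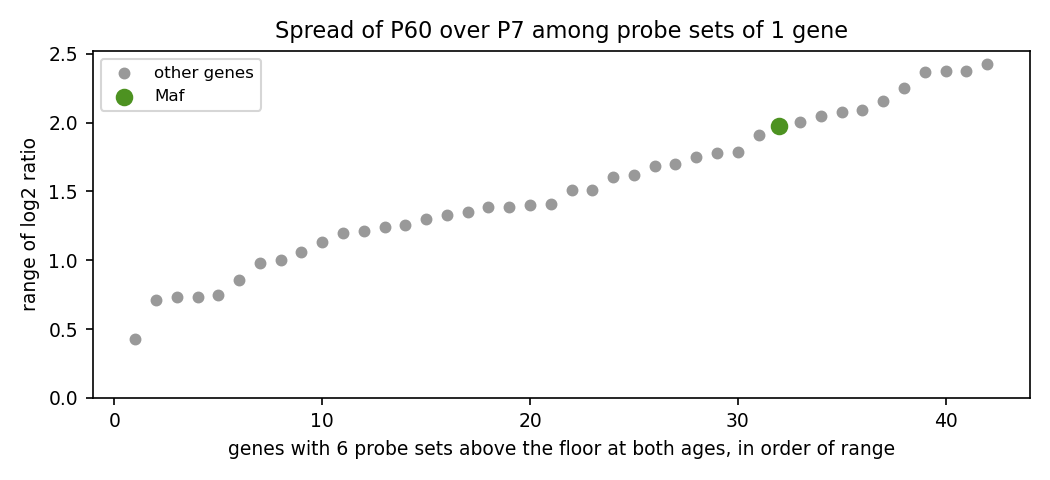
Span of the log2 ratio (P60 over P7) over the probe sets of each of the 42 genes with 6 probe sets above the floor at both ages, in increasing order. Maf (large point), at 1.98, lies above the median of 1.46, and 10 other genes lie above it.

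Maf is also made by cells other than lens cells, macrophages among them. Of 14 macrophage and leukocyte markers, all with a probe set, 6 were above the floor at P60 and 8 at P7. Of all probe sets 47.8% were above it at P60 and 52.2% at P7. The summed intensity of these markers was 1726 at P60 and 1835 at P7, of which Cd74 made 409 at P60 and 139.6 at P7. Of the 10 measured markers 4, Cd74 included, had a ratio above 0 and 6 below 0. Vascular endothelial markers were lower at P60, with 5 of 15 above the floor against 12 of 15 at P7, and a sum of 1557 at P60 against 6156 at P7. Of 5 erythroid markers with a probe set none was above the floor at P60 and 2 were at P7 (sums of 117 and 478), and of 8 pigment cell markers 5 were above the floor at P60 and 7 at P7 (sums of 3552 at P60 and 2456 at P7). Without Oca2, which read 2502 at P60 and 290.2 at P7, the pigment sums were 1049.7 at P60 and 2166.05 at P7. Tie1 and Pecam1 of the endothelial list were under the floor at both ages. The part of these cells in the Maf ratios was not tested.

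The small Maf genes stayed within 2-fold on all 4 of their probe sets, as did 17868 of all 22462 measured probe sets. Mafg, whose loss contributes to cataract in the mouse, read 1939.8 at P60 and 3628 at P7 on probe set 1448916_at, 1.87-fold lower. Its other probe set, 1434054_at, read 519 at P60 and 619 at P7, a log2 ratio of -0.25 that became 0.01 with the arrays scaled to a common median. The gap between them, 0.65 on the log2 scale, was near the median of 0.51 over 2671 genes with a pair of probe sets above the floor.

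Maff, a small Maf whose gene is known to be induced by stress, went the other way. It read 348 at P60 and 209.8 at P7, 1.66-fold higher, and its log2 ratio of 0.73 ranged from 0.69 to 0.997 over the settings tried. Mafk, which shares functions with Mafg, read 437 at P60 and 340.3 at P7, a log2 ratio of 0.36. Both rest on 1 probe set each. Probe sets of like intensity had an SD of the log2 ratio of 0.89 around Maff and 0.93 around Mafk. Both differences thus lay within the scatter of other transcripts at that level. The same held for all 8 family probe sets within 2-fold. Among them were the lower readings of Mafg 1448916_at (-0.90, SD 0.94), Maf 1444073_at (-0.92, SD 0.93) and Maf 1456060_at (-0.64, SD 0.70). The 3 probe sets at least 2-fold lower lay beyond their SD.

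**Figure D3:**
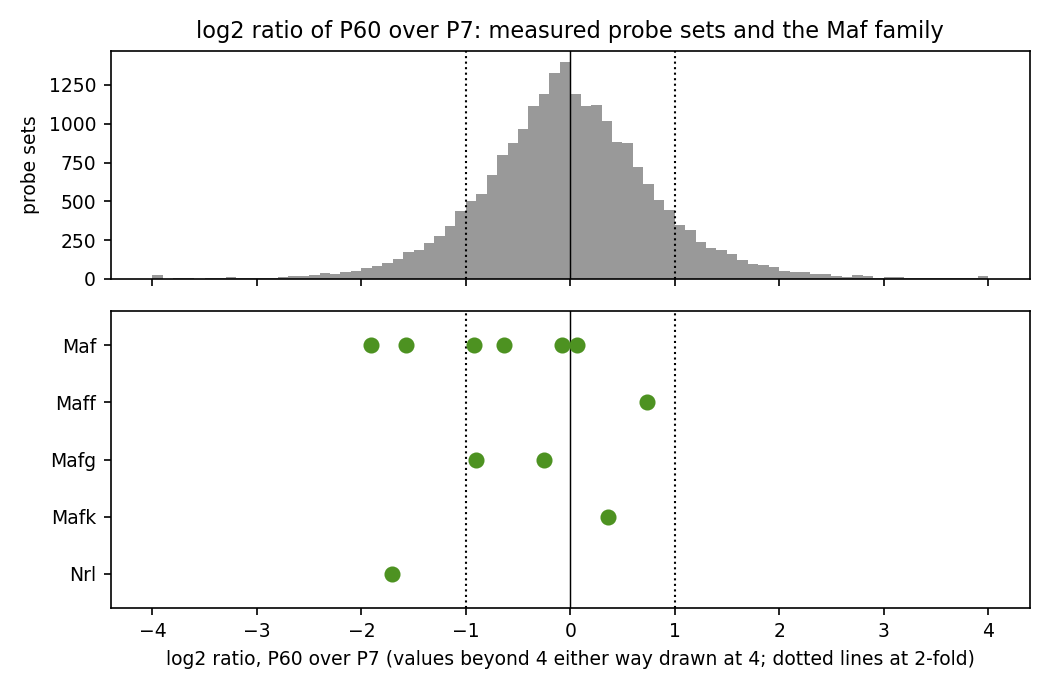
Upper panel, the number of measured probe sets by log2 ratio of P60 over P7; lower panel, the log2 ratio of each Maf family probe set by gene, with dotted lines at 2-fold. A pair of Maf probe sets and Nrl lie beyond 2-fold on the lower side, and no member lies beyond it on the higher side.

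Nrl was 3.25-fold lower at P60 on its single probe set, which read 267 at P60 and 869 at P7. Its log2 ratio of -1.70 ranged from -1.72 to -1.44 over the settings tried, and 2.63% of measured probe sets had a lower ratio. With 2 ages, likeness to other genes comes down to this 1 ratio. It was shared within 0.1 by 70 of 10236 named genes above the floor at both ages, and the closest were Lgi2 (1763 at P60 and 5746 at P7), Pld3 (619.98 at P60 and 2013 at P7) and Hcfc2 (601 at P60 and 1963 at P7).

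Photoreceptor genes include direct targets of Nrl in mouse rods. Of 29 listed genes 26 had a probe set and 20 were measured. At P60, 2 of these 20 were at least 2-fold lower and 1 was higher, against 9.44% of 13029 measured genes lower and 11.5% higher. This count depends on the floor: with a pseudocount of 16 in its place 5 of 20 were lower, and with the lower floor at the 25th percentile 6 of 24 were. The list's median was -0.07, a sign that turned with quantile or median scaling (0.03 and 0.10), and the median of all genes was 0.02.

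Pdc, which encodes the photoreceptor protein phosducin, read 258 at P60 and 1147 at P7, 4.44-fold lower. On its brighter probe set Pde6h, a cone phosphodiesterase subunit, was at least 2.55-fold lower (52.3, under the floor, at P60 and 265 at P7). The other measured probe set of Pde6h had a log2 ratio of -0.55 on floored values. Gnat1, the rod transducin subunit, was at least 7.59-fold higher (789 at P60 and 12.8, under the floor, at P7), and Rcvrn, which encodes recoverin, had a bound of 1.78-fold (185 at P60 and 59.3, under the floor, at P7). Crx, the homeobox factor that acts with Nrl in the retina, read 131 at P60 and 201 at P7 on its brighter probe set. This was a log2 ratio of -0.62, and its other measured probe set had -1.91 on floored values. Summed over the 26 genes, intensity was 10169 at P60 and 11694 at P7, with 14 genes above the floor at P60 and 17 at P7. Without Gnb1, a G protein subunit made in many tissues, the sums were 5107 at P60 and 6828 at P7. Of the 26 genes 11 were above the floor at both ages, among them the rod genes Sag, Pde6b, Pde6g and Rom1. Under it at both were 6, among them Prph2, Cnga1 and Rp1. The part of retinal cells in the Nrl signal was not tested.

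Of 7 listed genes of the CNC and Bach group, which includes the regulator Keap1, 5 were measured. Of these, 1 was 2-fold lower and none higher, against 9.44% and 11.5% of all measured genes. Bach2, a repressor that binds DNA with small Mafs, read 1458 at P60 and 3778 at P7, 2.59-fold lower, and its other probe sets had log2 ratios of -1.60 and 0.23. On its dimmest probe set, or on the mean over its probe sets, Bach2 was not 2-fold lower. Bach1, the repressor of heme oxygenase, read 457 at P60 and 726 at P7, a log2 ratio of -0.67, and its other probe set had -0.26.

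The activating partners, and Keap1, had ratios above 0. Nfe2l2, which encodes the stress-response factor NRF2, read 1492 at P60 and 1019 at P7 (log2 ratio 0.55), and its relative Nfe2l1 read 3629 at P60 and 2440.1 at P7 (0.57). Keap1, which holds NRF2 inactive, read 1342 at P60 and 1111 at P7 (0.27), and its other probe set had 0.04. Nfe2, the blood-cell member, and Nfe2l3 were under the floor at both ages. None of the ratios of Nfe2l2, Nfe2l1 and Keap1 reached 2-fold, and each lay below the SD of 0.58 between probe sets of a gene.

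Genes known to carry antioxidant response elements, where small Maf and NRF2 pairs bind, were more often higher than lower at P60. Of 26 listed genes 21 were measured. At least 2-fold higher were 8 of these and 1 was lower, against 11.5% and 9.44% of all measured genes. The list's median log2 ratio was 0.67, against 0.02 over all genes. For all 4 of the higher genes that had several measured probe sets, every one lay above 0. That count includes the probe set by which each gene was called higher, and the share among all higher genes was not worked out. Ephx1, a detoxifying epoxide hydrolase, read 2415 at P60 and 532 at P7, 4.54-fold higher. Aox1, an aldehyde oxidase, was at least 3.44-fold higher (357 at P60 and 11.1, under the floor, at P7). The other 6 were Gsta4, Gstm1, Slc7a11, Osgin1, Cat and Tkt, from 3.18-fold to 2.09-fold higher.

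Hmox1, which encodes heme oxygenase and is repressed by Bach1, was the only one lower, with 10378 at P60 and 25118 at P7, 2.42-fold. Taldo1, of the pentose phosphate pathway, had a log2 ratio of -0.57. The glutathione synthesis genes Gclm and Gclc had log2 ratios of 0.67 and 0.51, within 2-fold, and Nqo1, often used as an NRF2 read-out, had -0.24. Of the 8 higher genes 7 had a promoter window, and 0 of these held an ARE core, 3 the half-site and 2 the TRE. Of 9 other measured genes with a window 5 held an ARE core, 1 the half-site and 3 the TRE. Over all 27025 genes with a window the shares were 14.0% for the ARE core, 21.7% for the half-site and 5.95% for the TRE. These windows do not reach distal enhancers, where several of these genes are known to hold their elements.

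**Figure D4:**
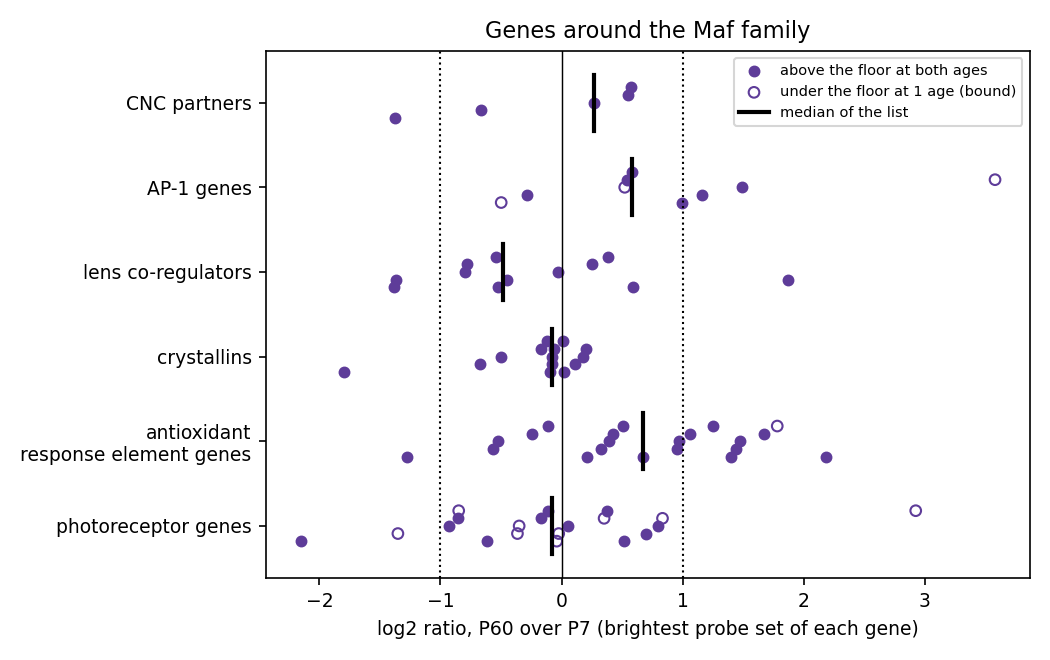
Log2 ratio (P60 over P7) of the measured genes of 6 lists around the Maf family, each gene on its brightest probe set, with the list's median as a bar. Filled points were above the floor at both ages and open points at 1 age only; the antioxidant list has its median at 0.67 and the crystallins crowd near 0.

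Promoter stretches are printed above for 9 of the 14 measured crystallins. Of the 14, 13 lay within 2-fold, as did 79.1% of all measured genes. The exception was Crygn, at 17708 at P60 and 61489 at P7, 3.47-fold lower. Next came Cryga at -0.67 on the log2 scale, and the highest ratios were those of Crybb2 (0.20) and Cryab (0.18). The 9 measured crystallins with a half-site in the window had log2 ratios from -1.80 to 0.11 with a median of -0.08, and the 4 without one had ratios from -0.50 to 0.20 with a median of -0.05. With or without the half-site the genes thus overlapped. Crystallin signals were among the brightest of the arrays, a range in which a difference can be compressed.

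**Figure D5:**
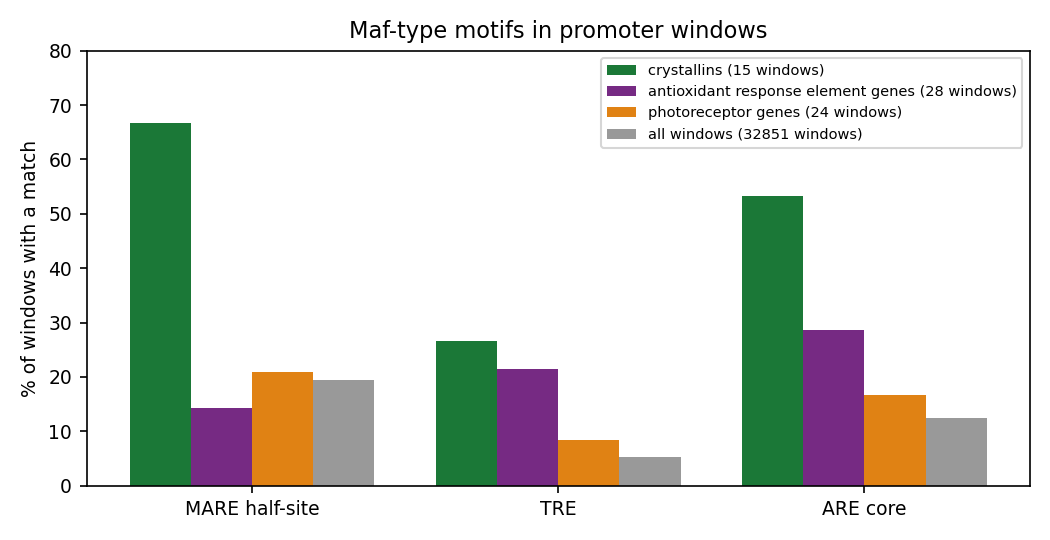
Share of 300-base promoter windows with at least 1 match to the MARE half-site, the TRE or the ARE core, for crystallins, antioxidant response element genes, photoreceptor genes and all windows. The half-site is in 66.7% of crystallin windows, against 14.3% for the antioxidant genes, 20.8% for photoreceptor genes and 19.5% of all windows.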

How the data were processed

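RNA of pooled lenses, 1 pool for P60 and 1 for P7, was hybridised to 1 array each. The deposited values are linear signal intensities, made by the authors with MAS5 per the submitters' processing notes. Its version, target intensity and detection calls are not stated in these sources, so the depth of measurement is bounded only by the number of arrays. Of 45101 probe sets 34958 had 1 gene symbol in the platform annotation, 932 several and 9211 none, and 34754 matched a current gene by gene number. For gene lists, a gene was represented by its brightest probe set (mean of both log2 intensities). A fold against a value under the floor is a lower bound. The calculation used Python 3.11.15 with pandas 2.3.3 and was tested on simulated data. Members, gene lists and settings were chosen with earlier results of these data known. Named are every family probe set, every CNC partner, the 2 highest and 2 lowest genes of each other list, and the 3 genes closest in ratio to a family gene past 2-fold. Crx, Gnb1, Gclm, Gclc, Nqo1, the other higher antioxidant genes, Fosl1, the rod genes named by detection, Oca2, Cd74, Tie1 and Pecam1 were named after their values were seen. Alternatives were other floors, a pseudocount of 16, other scalings, other probe set choices and other fold limits. Promoter sequences are from RefSeq, build GRCm38.p6.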

Additional observations from a re-analysis of the deposited data

How the results depend on the processing

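Of 117 recomputed values, 111 moved by less than 0.58, the SD within a gene's probe sets, or, for counts, by 1.5 times at most, and 6 moved further. Several of the 111 could not move. All 11 family probe sets lay above each floor tried at both ages, so another floor left their ratios unchanged. Maff, Mafk and Nrl have 1 probe set each, so the choice of probe set could not move them. Of the 6 that moved further, 4 concern which probe set stands for a gene. Maf had a log2 ratio of 0.07 on its brightest probe set, -1.58 on the dimmest, -0.84 as the mean over its probe sets and -0.64 without the _s_at, _x_at and _a_at probe sets, and Mafg had -0.25 on the dimmest in place of -0.90. With a limit of 1.5-fold, 1 family probe set was higher and 6 were lower, where 2-fold gave none and 3, and a limit of 3-fold left 2 lower. The median of the CNC partners turned to -0.31 with the floor at the 25th percentile of all values, which adds genes near background, and to -0.20 without the shared probe set types. The crystallin median turned to 0.19 with the arrays scaled to a common median, and the antioxidant median ran from 0.56 to 1.05. With a pseudocount of 16 in place of the floor, 5 photoreceptor genes were 2-fold lower and 2 higher, and with the lower floor 6 and 2, where the chosen floor gave 2 and 1; AP-1 genes higher ran from 2 to 4. No paired analysis was possible because each age has 1 array, and no replicate could be left out. A signal just above the floor, as for 1447945_at at P60, limits what its ratio can show.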

Other observations

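Large Maf proteins can also pair with the AP-1 proteins, and this group was higher at P60 in part. All 9 listed genes were measured, 3 of them at least 2-fold higher and none lower, with a median log2 ratio of 0.58 against 0.02 over all genes, and 11.5% of measured genes 2-fold higher. Fosl2 was at least 12.0-fold higher (1242 at P60 and 55.01, under the floor, at P7) and its other probe set had a bound of 1.48 on the log2 scale. Fos, an early-response gene, read 399.8 at P60 and 142 at P7, 2.82-fold higher. Fosl1 was 2.24-fold higher. Batf, of lymphoid cells, was under the floor at P60 (39.4 against 147 at P7), and Junb had a log2 ratio of -0.28.

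Factors that share lens promoters with Maf went both ways. Of 12 measured co-regulators 1 was 2-fold higher and 2 lower, with a median of -0.49, against 11.5% higher, 9.44% lower and a median of 0.02 over all genes. Sox2 read 4154 at P60 and 1138 at P7, 3.65-fold higher, while its relative Sox1, a factor of fibre cells in the mouse, read 2678 at P60 and 6913 at P7, 2.58-fold lower. Its other probe set had a bound of -0.35, and on the mean over probe sets Sox1 did not reach 2-fold. Foxe3, of the lens epithelium, read 110.5 at P60 and 288 at P7, 2.61-fold lower, with its P60 value close to the floor. Pax6, upstream of Maf in lens development, had a log2 ratio of 0.59 on its brightest probe set and ratios down to -0.78 on the others.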
